A study of Homo sapiens with 6 samples.

Results

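Ribosome biogenesis and nucleolar processing factors are the proteins that build ribosomes without being part of them. They were read here from the authors' table of genes that differed between extract-treated and vehicle-treated cells. A gene was taken when its annotation in the table held rRNA processing, ribosome biogenesis or assembly of either subunit, or when it was NOP16, LYAR, GNL3, NCL or NPM1. Genes whose names start with RPL, RPS, MRPL, MRPS or EIF were left out. The rule found 40 genes among the 1099 in the table, 36 of them by annotation and GNL3, NCL, NOP16 and NPM1 by name alone.

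Poly(A) RNA came from 6 libraries of cells labelled A549, a human lung adenocarcinoma line. Wild-type cells in RPMI-1640 with fetal bovine serum received F/B extract (3 libraries) or the DMSO vehicle (3 libraries) for 24 h. The series title speaks of Flos Sophorae Immaturus and broccoli seed for this extract, and the dose is not given in the sources used here. Whether replicates were separate cultures is not said, and p-values then reflect the spread of these libraries alone, which can be technical. The label A549 stands against 2 observations. The library names begin with AGS, the name of a gastric cancer line, and MTAP, which A549 lacks through a deletion, had 48.9 to 60.5 TPM (a transcript abundance corrected for length). Of 9 lung markers 0 were in the table. Of 12 gastrointestinal markers 4 were, with VIL1 at 142 to 214 TPM, and all 4 were lower with extract. Of 5 fibroblast and endothelial markers COL1A1 alone was listed, at 10.0 to 15.8 TPM, and of 4 leukocyte markers 0 were. Their part in the results below was not tested, and markers outside the table were not analysed here.

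The table limits what any count of its genes can show. Of 11289 genes tested by the authors it holds the 9.74% that rank first by p-value in this same comparison, up to 0.00535, so every gene in it was selected for differing between the groups. Sums of estimated counts over the listed genes ran from 3084338 to 4640117 per library. A normalised count here is an estimated count, rounded and then divided by a size factor implied by the authors' own fold changes, and fold changes are extract over vehicle. Genes were called with edgeR's quasi-likelihood test at an adjusted p under 0.05, with the adjustment made over all 11289 tests.

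Ribosomes are made in the nucleolus. RNA polymerase I transcribes a long precursor rRNA, small nucleolar ribonucleoproteins (snoRNPs) guide its chemical modification, and the small-subunit processome and large-subunit assembly factors fold, cut and package it with ribosomal proteins before export. Dividing tumour cells keep this pathway active, and the transcription factor MYC is a well-known activator of its genes.

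All 40 genes had lower normalised counts with extract. The test called 36 of them lower and 0 higher, where 52.8% of all listed genes were called lower and 28.8% higher. Of the 712 listed genes with a log2 fold change below 0, which alone could be called lower, 580 were called lower. As every member's fold change was negative, the count called higher could only be 0, also at an unadjusted p under 0.05 by edgeR, DESeq2 or limma-voom. The decreases were small and close together, with a median log2 fold change of -0.27, which is 17.1% fewer counts, and a range from -0.52 to -0.20. Over all listed genes, raised and lowered together, the median was -0.22 and the range was -1.57 to 0.82. SBDS and EBNA1BP2, in the middle of the members, ranked 397 and 406 from the lowest among the 712 listed genes below 0. On this ranking the members' median was not below that of the lowered genes. With the selection on small p-values, a smaller change would hardly have been listed, so the upper end of the members' range is in part set by the table.

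In each of the 40 genes, the 3 extract libraries lay below the 3 vehicle libraries. The same held, in the lower direction, for 702 listed genes (63.9%), where 712 had a log2 fold change below 0. With a table selected on p-values from these libraries, nearly every lowered gene in it shows this separation. Within a group the members varied little, with a median coefficient of variation of 3.46% in vehicle and 5.18% in extract. Extract replicate 3 was the lowest library in 26 of the 40 genes, extract replicate 1 in 8 and extract replicate 2 in 6. Vehicle replicate 1 was the lowest of the vehicle libraries in 25 genes. RNA of whole cultures cannot tell a lower level in every cell from fewer cells with a high level.

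**Figure D1:**
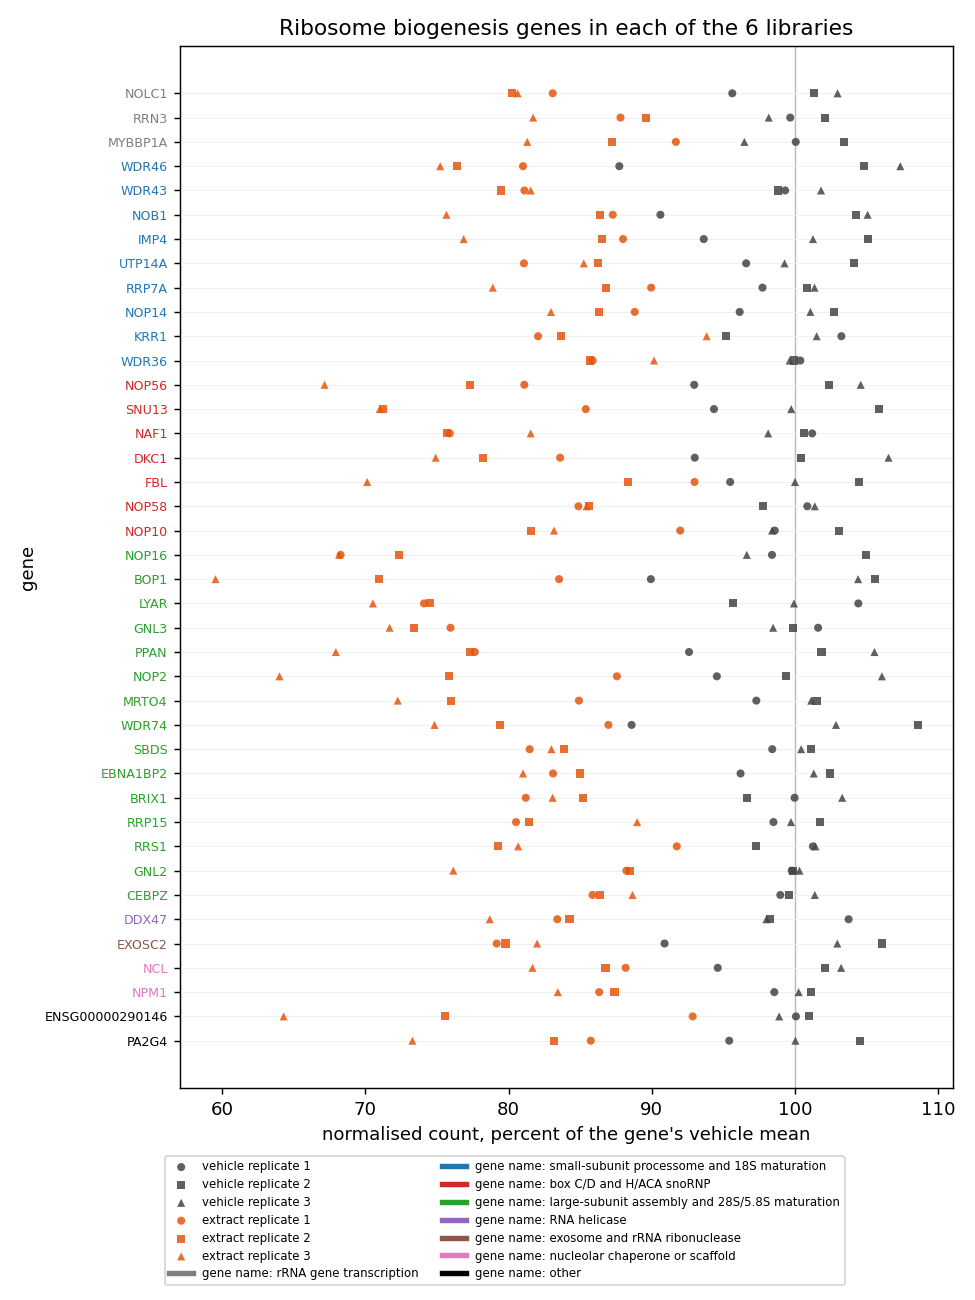
Normalised counts of the 40 genes in each of the 6 libraries, as a percentage of the gene's mean over the 3 vehicle libraries (x axis), with 1 gene per line and the colour of the gene name giving its role. The 3 extract points lie left of the 3 vehicle points on every line, and extract replicate 3 is the leftmost point on 26 of them.

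How large the decrease is, and how many genes pass the test, depended on how the libraries were scaled. On the scale implied by the authors' TPM values 13 members were called lower (17.9% of all listed genes), with a median of -0.18. With TMM over the listed genes 3 were called (7.92%), with a median of -0.12, and with DESeq2 size factors over them also 3 (7.83%). With sums over the listed genes 8 were called (11.5%). No member turned higher on any of the 4 other scales. These raise the median log2 fold change by at most 0.17, and the least lowered member was at -0.20. A member could therefore hardly have turned higher. The number called was also 6 without vehicle replicate 2 (11.6% of all listed genes), 14 without vehicle replicate 3 (20.4%) and 10 without extract replicate 2 (16.8%). NOP16, LYAR and GNL3 kept their call in all 16 alternative settings, of which the changed filters and the adjustment over the listed genes alone could lose none. All 3 are genes named in the rule. How many of all listed genes kept a call in every setting was not counted. With TMM these 3 of the 40 members were called, beside 87 of the 1099 listed genes, so their number does not set the members apart.

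The deposited TPM values are scaled over all genes but come from the same libraries, so they are not an independent view. Summed over the 40 genes, TPM was 7106, 7348 and 7398 in vehicle replicates 1 to 3. In extract replicates 1 to 3 it was 6381, 6564 and 6435, below each vehicle library. Without NPM1, the most abundant member, the sums were 5063 to 5329 in vehicle and 4480 to 4613 in extract. All listed genes together held 33.1%, 32.8% and 32.3% of all TPM in vehicle replicates 1 to 3. In extract replicates 1 to 3 they held 31.1%, 30.1% and 30.4%, also without overlap. The members come from genes selected on these libraries and were all lowered, so their lower sums follow largely from that choice. Gene by gene, the TPM of the groups did not overlap for 31 of the 40. Lower with extract without overlap were 486 of all listed genes (44.2%), where 712 had a log2 fold change below 0. The overlapping members were EXOSC2, NOB1, IMP4, FBL, GNL2, NOP10, KRR1, MYBBP1A and WDR36.

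**Figure D2:**
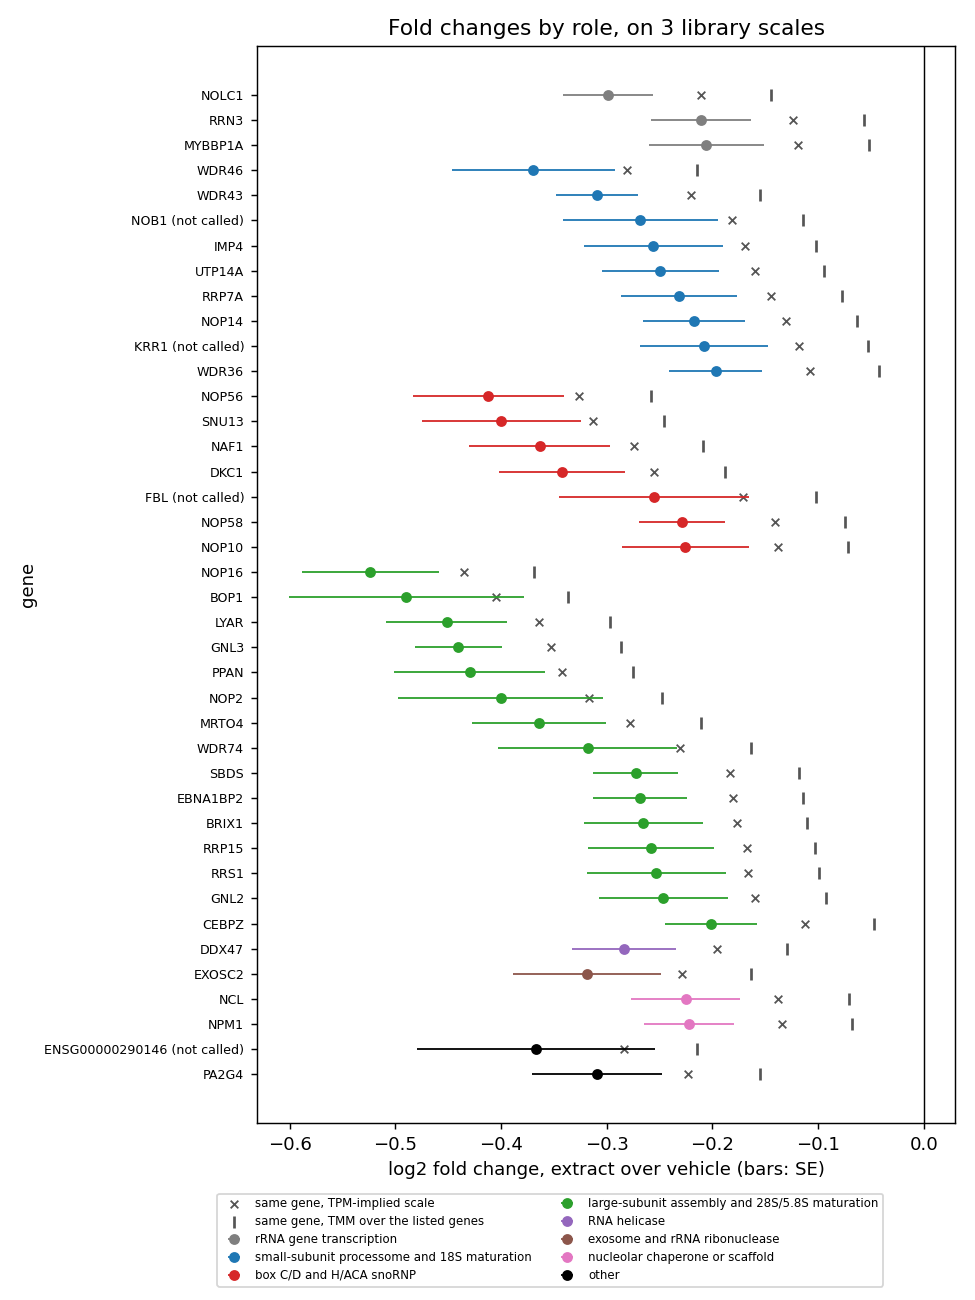
Log2 fold changes of extract over vehicle for the 40 genes, grouped by role, with circles for the size factors used and bars for their standard error. Crosses show the same genes on the TPM-implied scale and ticks with TMM over the listed genes, and all markers lie left of 0, with circles between -0.52 and -0.20.

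The lowest fold changes were in factors of the large ribosomal subunit, a role with 15 members, all of them called lower, with a median of -0.32. NOP16 (ENSG00000048162, GRCh38 chromosome 5, 176383938 to 176388975), a nucleolar protein of the large-subunit precursor, had 693, 739 and 681 normalised counts in vehicle replicates 1 to 3. With extract it had 481, 509.7 and 480.1. Every extract library was well below the lowest vehicle library, at -0.52 in log2 terms (SE 0.06, edgeR adjusted p = 0.00289). GNL3 (ENSG00000163938, chromosome 3, 52681156 to 52694492), the GTP-binding protein nucleostemin, had 3751, 3687 and 3635 in vehicle and 2803, 2708 and 2646 in extract. It was the member with the smallest p-value, at -0.44 (SE 0.04, edgeR adjusted p = 0.00117). Its TPM was 225, 205 and 203 in vehicle and 157, 156 and 157 in extract.

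LYAR (ENSG00000145220, chromosome 4, 4267701 to 4290169), a zinc finger protein of the nucleolus, had 1015, 929.6 and 971 normalised counts in vehicle and 720.1, 724 and 685 in extract. The groups were separated by more than the spread within either, at -0.45 in log2 terms (SE 0.06, edgeR adjusted p = 0.00335).

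BOP1, which with PES1 and WDR12 forms a complex needed to mature the large-subunit rRNA, had 911, 1070 and 1058 in vehicle and 846, 719 and 603 in extract. Extract replicate 1 was close to vehicle replicate 1, and the log2 fold change of -0.49 carried the widest error among the called members (SE 0.11, edgeR adjusted p = 0.0264). PPAN, a Brix-domain assembly factor, had 1051, 1156 and 1198 in vehicle and 881, 878 and 771 in extract, or -0.43 (SE 0.07, edgeR adjusted p = 0.00845). PPAN shares its strand with the readthrough gene PPAN-P2RY11, and reads of these genes may have been split between them.

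The other 10 large-subunit factors were called lower as well, from -0.40 to -0.20. NOP2, an rRNA methyltransferase, was at -0.40, and MRTO4, a relative of a ribosomal stalk protein, was at -0.36. WDR74 was at -0.32. SBDS, the protein mutated in Shwachman-Diamond syndrome, which helps release a late assembly factor from the subunit, was at -0.27. EBNA1BP2 and BRIX1 were at -0.27, RRP15 at -0.26 and RRS1 and the GTPase GNL2 at -0.25. CEBPZ was at -0.20. RRP15 was the least abundant member, at a mean of 8.89 TPM in vehicle and 8.13 in extract.

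The snoRNPs had 7 members and a median of -0.34. Box C/D snoRNPs, which guide rRNA methylation, have the core proteins FBL (fibrillarin, the methyltransferase), NOP56, NOP58 and SNU13, and all of these were listed. NOP56 had 5914, 6515 and 6654 normalised counts in vehicle and 5159, 4916 and 4271 in extract. The 3 extract values spread widely but stayed below the vehicle values, at -0.41 (SE 0.07, edgeR adjusted p = 0.0100). NOP58 had 2498, 2421 and 2511 in vehicle and 2102, 2120 and 2116 in extract. Its extract libraries were nearly equal, and a decrease of -0.23 passed the test (SE 0.04, edgeR adjusted p = 0.0109). SNU13 was called at -0.40. FBL had 3373, 3691 and 3533 in vehicle and 3285, 3120 and 2477 in extract. Its low value in extract replicate 3 stood apart, and FBL was not called at -0.26 (SE 0.09, edgeR adjusted p = 0.188).

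H/ACA snoRNPs guide the conversion of uridine to pseudouridine. DKC1, their pseudouridine synthase dyskerin, had 3648, 3939 and 4179 normalised counts in vehicle and 3279, 3067 and 2938 in extract. Vehicle replicate 1 was the nearest to the extract libraries, and DKC1 was at -0.34 (SE 0.06, edgeR adjusted p = 0.0101). The assembly factor NAF1 was called at -0.36 and the core protein NOP10 at -0.23.

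The small-subunit processome and later small-subunit maturation had 9 members, of which 7 were called lower, with a median of -0.25. WDR43, a processome protein with WD40 repeats, had 3642, 3624 and 3734 normalised counts in vehicle and 2974, 2915 and 2990 in extract. Both groups were tight, and WDR43 was at -0.31 (SE 0.04, edgeR adjusted p = 0.00316). WDR46, another WD40 protein, had 1095, 1308 and 1340 in vehicle and 1011, 954 and 939 in extract. Vehicle replicate 1 lay nearer to extract replicate 1 than to the other vehicle libraries, at -0.37 (SE 0.08, edgeR adjusted p = 0.0198). UTP14A had 966, 1041 and 992 in vehicle and 810.4, 862 and 852 in extract, or -0.25 (SE 0.06, edgeR adjusted p = 0.0242). IMP4, part of the U3 snoRNP, was called at -0.26, RRP7A at -0.23, NOP14 at -0.22 and WDR36 at -0.20. The endonuclease NOB1, which makes the last cut of the small-subunit rRNA, was at -0.27 and missed the threshold (edgeR adjusted p = 0.0558), as did KRR1 at -0.21 (edgeR adjusted p = 0.0740).

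Members with a role in transcription of the rRNA genes were 3, all called lower, with a median of -0.21. NOLC1, a phosphoprotein chaperone that links polymerase I with snoRNPs, had 6083, 6448 and 6551 normalised counts in vehicle and 5285, 5102 and 5129 in extract. The groups were clearly apart, at -0.30 (SE 0.04, edgeR adjusted p = 0.00490). RRN3, the factor that brings polymerase I to the rRNA promoter, had 2858, 2928 and 2815 in vehicle and 2518, 2570 and 2343 in extract, or -0.21 (SE 0.05, edgeR adjusted p = 0.0252). MYBBP1A had 2091, 2162 and 2016 in vehicle and 1916, 1823 and 1699 in extract, or -0.21 (SE 0.05, edgeR adjusted p = 0.0487). The last of these calls lies at the threshold, and its TPM overlapped between the groups.

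The abundant nucleolar proteins nucleolin (NCL) and nucleophosmin (NPM1) were among the least lowered. NPM1 (ENSG00000181163, chromosome 5, 171387116 to 171411137), a histone and ribosome chaperone, had 27045, 27754 and 27512 normalised counts in vehicle and 23688, 23981 and 22895 in extract. The groups were separate at -0.22 in log2 terms (SE 0.04, edgeR adjusted p = 0.0147). NCL (ENSG00000115053, chromosome 2, 231453531 to 231483641), which binds precursor rRNA, had 22024, 23776 and 24031 in vehicle and 20526, 20199 and 19011 in extract, or -0.23 (SE 0.05, edgeR adjusted p = 0.0267). GENCODE names 45 pseudogenes of NPM1, and reads that fit both a gene and its copy make its count less certain.

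A further 4 members stood alone in their roles or had none assigned. The DEAD-box helicase DDX47 had 1825, 1728 and 1724 in vehicle and 1467, 1482 and 1384 in extract, at -0.28 (SE 0.05, edgeR adjusted p = 0.00999). EXOSC2, a cap protein of the RNA exosome, which trims rRNA ends, had 721, 841 and 816 in vehicle and 628, 633 and 650.1 in extract, at -0.32 (SE 0.07, edgeR adjusted p = 0.0233). Both were below vehicle in every extract library. The growth-regulated ribosome-binding protein PA2G4 had 6893, 7551 and 7227 in vehicle and 6194, 6008 and 5294 in extract, at -0.31 (SE 0.06, edgeR adjusted p = 0.0171). The unnamed gene ENSG00000290146, described in the table as a protein joining EMG1, an rRNA methyltransferase, with C1S, had 614, 620.0 and 607 in vehicle and 570.0, 464 and 395 in extract. Its extract libraries disagreed the most among all members, and it was not called at -0.37 (SE 0.11, edgeR adjusted p = 0.0958).

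Members can be compared without any scaling of the libraries, as a ratio of counts within each library. The pairs below were chosen after the fold changes were seen and are a description. A strongly lowered member set against a weakly lowered one is apt to separate by this choice. Whether members fell by the same factor was not tested. With the mean of the vehicle libraries set to 1, the ratio of NOP16 to NPM1 was 0.998, 1.04 and 0.964 in vehicle and 0.791, 0.828 and 0.817 in extract. That of GNL3 to NPM1 was 1.03, 0.987 and 0.982 in vehicle and 0.880, 0.839 and 0.859 in extract. Both ratios were lower in each extract library than in any vehicle library. The ratio of GNL3 to its relative GNL2 was 0.982 to 1.02 in vehicle and 0.829 to 0.942 in extract, also without overlap. For BOP1 to NPM1 and NOP56 to NOP58 the groups overlapped, with 0.913 to 1.04 against 0.714 to 0.968 and 0.921 to 1.05 against 0.785 to 0.955.

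**Figure D3:**
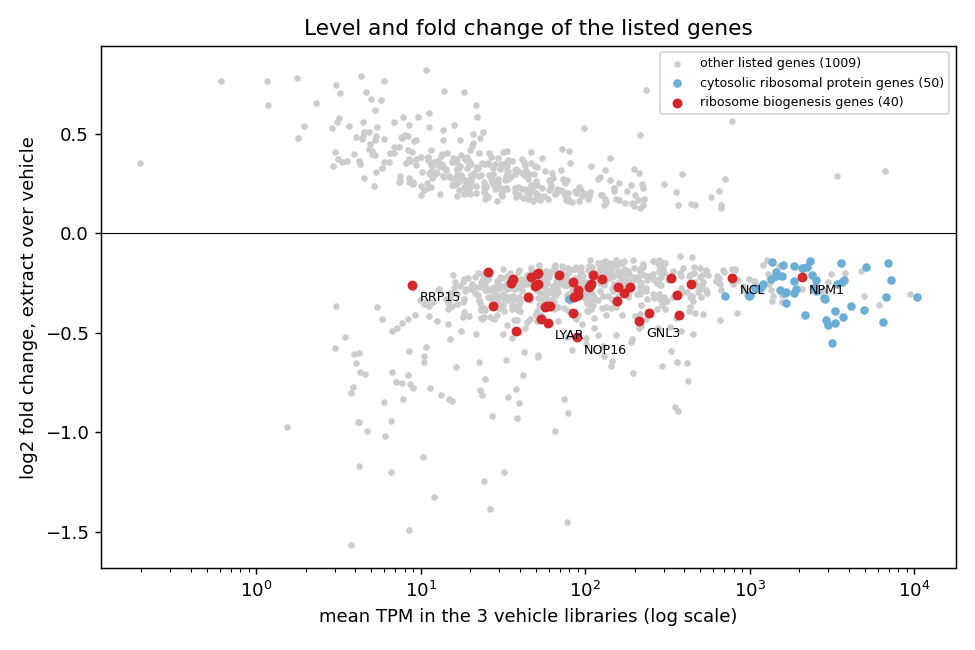
Log2 fold change of extract over vehicle (y axis) against the mean TPM in the 3 vehicle libraries (x axis, log scale) for all 1099 listed genes. The 40 ribosome biogenesis genes lie in a narrow band between -0.52 and -0.20 over levels from 8.89 to 2067 TPM, and the gap around 0 is where genes with larger p-values are not listed.

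Other genes of the pathway came from a list of 275 genes by role, written with earlier results of these data known. Of these, 73 were in the table (26.5%, where the table holds 9.74% of tested genes, and it is not known how many of the 275 were tested). The rule takes members from the table, and the list was written knowing them. The 26.5% is therefore in part set by this choice and cannot be read as an enrichment. Beside 38 members these were 35 genes that the annotation rule did not take. All 35 were lower with extract, with a median of -0.30. Beside 580 called lower of the 712 listed genes below 0, 29 of the 35 were called lower and 0 higher. With TMM over the listed genes 5 were called and DHX15 was above 0. Called were 12 without vehicle replicate 2 (11.6% of all listed genes), and likewise 12 without vehicle replicate 3 (20.4%) and 12 without extract replicate 2 (16.8%). Large-subunit factors were again the most numerous, with ZNF593 at -0.56, CCDC86 at -0.48, NIFK at -0.37 and the GTPase GTPBP4 at -0.35. The helicase DDX21 was at -0.33 and RRP12, which acts in export of the small subunit, at -0.43. GAR1, the partner of DKC1 and NOP10, was at -0.39. The polymerase I subunits POLR1G at -0.31 and POLR1A at -0.22 were not called.

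Listing differed by role. In the table were 9 of 18 snoRNP genes (50%), 25 of 71 large-subunit genes (35.2%), 15 of 65 small-subunit genes (23.1%) and 5 of 31 genes of rRNA gene transcription (16.1%). Of 34 genes of the exosome and of rRNA ribonucleases, EXOSC2 alone was listed (2.94%). Within BOP1's complex PES1 and WDR12 were not listed. These shares include members, which are in the table by the rule, and whether they differ between roles was not tested.

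Many small nucleolar RNAs are cut from the introns of host genes. Of 13 non-coding snoRNA host genes in the list, 6 were in the table and all 6 were called lower, among them SNHG15 at -0.59, SNHG5 at -0.47 and GAS5 at -0.22. Most lowered genes of the table were called, 580 of the 712 below 0, so 6 of 6 does not set these genes apart. Some of the members are hosts themselves. By GENCODE coordinates 7 of 39 members (17.9%) held a snoRNA gene on their own strand, against 4.33% of listed genes and 1.28% of all protein-coding genes. These were GNL3, NOP56, NOP58, NCL, WDR43, DKC1 and PPAN. Their log2 fold changes ran from -0.44 for GNL3 to -0.23 for NCL. The snoRNAs themselves were not analysed here.

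The members shared annotations beside the terms of the rule. Nucleolus and ribosome biogenesis map lie close to those terms in meaning, so high shares follow largely from the choice of genes. The table places 32 of the 40 (80.0%) in the nucleolus, against 10.1% of all listed genes. Of the 17 listed genes that it assigns to the map of ribosome biogenesis in eukaryotes, 13 were members. Among protein families, 5 members had WD40 repeats (BOP1, WDR36, WDR43, WDR46 and WDR74). BRIX1, IMP4 and PPAN were the 3 listed genes with a Brix domain. GNL2 and GNL3 shared a GTPase domain, and NOP56 and NOP58 the snoRNA-binding Nop domain. Among the WD40 members log2 fold changes ran from -0.49 (BOP1) to -0.20 (WDR36). Of the Brix members PPAN was at -0.43, BRIX1 at -0.27 and IMP4 at -0.26. Differences within families were not tested.

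Promoter sequence was compared because the members moved together, a direction that all 50 listed cytosolic ribosomal protein genes shared. RefSeq windows of GRCh38.p14, from 250 bases before to 50 after the start, were found for 34 members. Their starts can differ from the ends of the GENCODE genes given above, as for GNL3 and NOP16, whose RefSeq starts lie inside those genes. BOP1, NAF1, NOLC1, NOP58, RRS1 and SNU13 had no entry. The E-box CACGTG, a palindrome that MYC with its partner MAX and related factors bind, was in 12 of 34 (35.3%). It was in 12.4% of 881 promoters of listed genes and in 7.43% of all 27305 promoters. Of the 42 promoters of cytosolic ribosomal protein genes, 1 had it (2.38%). The matches lay mostly just past the start. In the first 50 bases 9 of 34 members had an E-box (26.5%), against 2.38% of listed genes and 0.912% of all promoters. In the 250 bases before the start 4 members had one (11.8%), against 9.99% and 6.49%. A match is a description and not a shown binding site. Biogenesis genes outside the table were not compared, so whether these shares relate to the response to extract was not tested.

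The 30 bases around these E-boxes are shown because the position of the E-box is what the shares above turn on, 5′ to 3′ on the gene's strand with the E-box in capitals. In these 9 genes its first base was 4 to 42 bases from the start.
WDR43 (chr2:28894658-28894687, plus strand): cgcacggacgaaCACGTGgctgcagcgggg
GNL2 (chr1:37595917-37595946, minus strand): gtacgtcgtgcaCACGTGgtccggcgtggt
FBL (chr19:39846356-39846385, minus strand): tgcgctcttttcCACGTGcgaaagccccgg
MRTO4 (chr1:19251807-19251836, plus strand): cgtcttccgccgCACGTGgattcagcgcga
IMP4 (chr2:130342900-130342929, plus strand): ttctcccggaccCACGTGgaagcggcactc
NOP14 (chr4:2963374-2963403, minus strand): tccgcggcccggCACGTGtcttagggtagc
MYBBP1A (chr17:4555340-4555369, minus strand): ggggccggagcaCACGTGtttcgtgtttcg
NOP2 (chr12:6568242-6568271, minus strand): gctaggtccggattgCACGTGgagggccgc
WDR46 (chr6:33289190-33289219, minus strand): tggcagctgagaggagttttgCACGTGgat

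NOP10, EBNA1BP2 and UTP14A had their E-boxes before the start, NOP10 with one at 11 bases before it.
NOP10 (chr15:34343130-34343159, minus strand): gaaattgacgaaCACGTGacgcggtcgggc

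**Figure D4:**
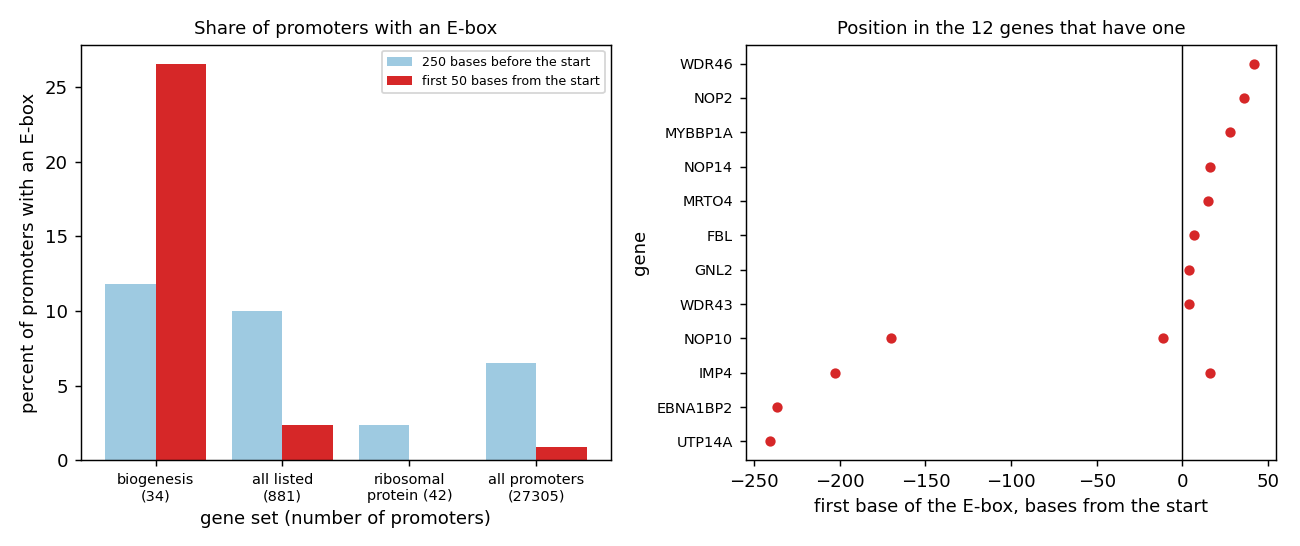
Left, percent of promoters with an E-box in the 250 bases before the start and in the first 50 bases from it, for 34 ribosome biogenesis genes, 881 listed genes, 42 ribosomal protein genes and all 27305 promoters. Right, position of each E-box in the 12 ribosome biogenesis genes that have one, with 9 genes holding one between 4 and 42 bases after the start.

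Members with and without an E-box had similar fold changes, which were not tested against each other. The 12 members with one had a median log2 fold change of -0.26 (from -0.40 to -0.21), and the 22 without one had a median of -0.28 (from -0.52 to -0.20). MYC and MAX were themselves listed and called, at -0.36 (SE 0.09, edgeR adjusted p = 0.0323) and -0.20 (SE 0.04, edgeR adjusted p = 0.0251). Their part in the members' values was not tested. The call of each was lost with TMM over the listed genes.

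NOP16, LYAR and GNL3, the members called in every setting, were among the 22 of 34 members without an E-box in this window. Most members lacked it, so its absence does not set these 3 genes apart. For GNL3 and NOP16 the RefSeq start used for the window lies inside the GENCODE gene. Whether the absence relates to their fold changes was not tested.

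Of the members 35.3% had the ETS letters (CCGGAAG, either strand) in the window of 300 bases, against 18.6% of listed genes, 40.5% of ribosomal protein genes and 10.7% of all promoters. GC boxes (GGGCGG, either strand) were in 64.7%, 65.3%, 52.4% and 44.6% of these sets. CCAAT boxes (CCAAT, either strand) were in 32.4%, 35.4%, 33.3% and 35.7%. TATAAA was in 0 of the 34 windows, against 7.04% of listed genes, 2.38% of ribosomal protein genes and 12% of all promoters. The NRF1 motif in its palindromic form was in 3 members (8.82%), in 2.16% of listed genes and in 1.36% of all promoters. It was in 0 of the 42 promoters of ribosomal protein genes.

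Ribosomal protein genes were set beside the members as the most similar genes. Of 50 listed cytosolic ribosomal protein genes 41 were called lower and 0 higher, with a median of -0.28, but their level was far higher, at a median of 2234 TPM over the 6 libraries against 79.2 for the members. With TMM over the listed genes 4 of the 50 turned higher and none of the 40 members did. TMM raises the median by 0.15, and the least lowered ribosomal protein gene was at -0.14 against -0.20 for the members. The contrast follows from these limits, and on the TPM-implied scale 0 of either set turned higher. Of 13 listed translation initiation factor genes 6 were called lower and 2 higher, with a median of -0.20. These are counts of genes chosen by p-value, and differences between the groups of genes were not tested.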

How the data were processed

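The members and gene lists were chosen with earlier results of these data known. The authors deposited 1 table. Its estimated counts and TPM per library and its comparison (fold change as a ratio, log2 fold change, p-value and adjusted p-value) are the authors' values, per the file headers, made with DESeq2, per the table's name. The submitters' processing notes name GRCh38.p13, while aligner, counter, annotation and strand setting are not stated in the sources used. Of the count values per library 31.8% to 35.9% were not whole and were rounded.

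A Benjamini-Hochberg adjustment over 11289 tests links the deposited p-values to their adjusted values (largest relative error 0.00445). The deposited fold changes are vehicle over extract and were turned round. Size factors were found by matching DESeq2 (1.42.0) fold changes to the deposited ones, with a median absolute log2 difference of 6.61e-05. Vehicle replicates 1 to 3 had 0.939, 1.23 and 1.05, and the extract replicates, in the same order, 0.919, 0.959 and 0.935. All listed genes were tested in 1 fit with edgeR 4.0.16 (R 4.3.3, limma 3.58.1), which was tested on simulated data. The simulation changed 200 genes and left the others unchanged, unlike this table of selected genes. It therefore cannot show how the test behaves under that selection. The spread was estimated from listed genes alone, so p-values may be too small. The low-count filter removed 0 genes. SE is the absolute log2 fold change over the square root of F.

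Named were the 5 genes of the rule, up to 3 per role by p-value, the 5 lowest with at least 5 TPM and, once each, the other members. Gene positions are from GENCODE 29. Of 39 members with a position, 22 overlap a gene on the other strand, whose reads may not be separable.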

Additional observations from a re-analysis of the deposited data

How the results depend on the processing

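All 40 members were lower with extract in each of the 16 alternative settings, and the number called higher stayed at 0. With the least lowered member at -0.20 and scale shifts of at most 0.17, the other scales could hardly have turned one higher. The 36 called lower became 13 on the TPM-implied scale. Scaling by the listed genes themselves gave 8 (sums), 3 (TMM) and 3 (DESeq2's size factors). Over all listed genes the 580 called lower became 197, 126, 87 and 86 on these scales in that order, and the 316 called higher became 371, 386, 385 and 387. These scales raise the median log2 fold change by 0.09, 0.14, 0.15 and 0.17, and the last 3 use the selected genes as their own reference. DESeq2 called 39 members lower (689 of all listed genes), limma-voom 36 (590), and adjustment over the listed genes alone 40 (712, which is every listed gene below 0). Leaving out 1 library gave 6 to 36 members called lower, and over all listed genes 127 to 571 lower and 50 to 286 higher. The lowest values came without vehicle replicate 2, and the cause was not tested.

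With the replicate number as a replicate block 12 members were called lower, and over all listed genes 222 lower and 86 higher. Same-numbered libraries did not deviate together (correlations of -0.23, -0.01 and -0.03 for numbers 1 to 3), so the numbers were not taken to pair the samples. Members had 395 to 27754 normalised counts per library, and at the lowest of these counting error adds to the spread between libraries.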
